A study of Mus musculus with 6 samples.

Results

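The 7 genes described here encode transcription factors that act in muscle: the myogenic regulatory factors Myod1, Myog (myogenin), Myf5 and Myf6 (Mrf4), and the Mef2 factors Mef2a, Mef2c and Mef2d. They were taken by name, and no signal enters the rule that picks their probes. All 7 had a probe on the array, with 10 probes in all, and 6 of the 7 were bright enough to be tested among 20900 genes. Their mRNA was measured in the gastrocnemius, a fast muscle of the calf, of male mice, C57BL/6J by the strain given in the methods of the study. The young group was 3 mice of 13 weeks of age and the aged group was 3 mice of 26 months of age, with 1 single-colour Agilent array per mouse. No allele or treatment is given for either group, so age was the only labelled difference. The RNA came from whole muscle, which holds fibres, satellite cells, nerve, vessels and connective tissue. In such a bulk sample, fewer cells of a type and less RNA per cell cannot be told apart.

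The myogenic regulatory factors are basic helix-loop-helix proteins. Each pairs with an E protein, such as Tcf3, Tcf4 or Tcf12, and binds a short DNA motif called an E-box. Id proteins lack a DNA-binding region and hold E proteins away from them. Myf5 and Myod1 commit cells to the muscle lineage and mark satellite cells, the stem cells of muscle, as they become active. Myog drives the fusion and differentiation of myoblasts, and Myf6 is the member with the highest expression in adult fibres. In adult muscle, loss of the nerve is known to raise Myog and Myod1, and Myog acts there on genes of the acetylcholine receptor. Mef2 proteins are MADS-box factors that bind an AT-rich site, work together with the myogenic regulatory factors, and are held in check by class IIa histone deacetylases such as Hdac4 and Hdac5.

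The sequences before the start of transcription show where such factors could bind. RefSeq windows of 300 bases on GRCm38.p6, from 250 bases before the start to 50 after it, were found for 5 of the 7 genes, with no entry for Myod1 and Myf6. Each window was searched for E-boxes (CANNTG), for the E-boxes CAGCTG and CACCTG, which are part of the same set, and for the Mef2 site, all on both strands. Myog is shown because its signal differed most between the ages among the 7, Myf5 because it was dim on every array, and Chrna1, the alpha subunit of the muscle acetylcholine receptor, because it is a textbook target of the family. Bases in capitals are E-boxes, except for the 10-base run in Myog that starts at −64, which is a Mef2 site if any last base is allowed, an option chosen after this window was seen. The windows are on the plus strand at chr1:134289754-134290053 for Myog, on the minus strand at chr10:107486085-107486384 for Myf5 and on the minus strand at chr2:73580289-73580588 for Chrna1, and are written 5′ to 3′ along the gene.
Myog: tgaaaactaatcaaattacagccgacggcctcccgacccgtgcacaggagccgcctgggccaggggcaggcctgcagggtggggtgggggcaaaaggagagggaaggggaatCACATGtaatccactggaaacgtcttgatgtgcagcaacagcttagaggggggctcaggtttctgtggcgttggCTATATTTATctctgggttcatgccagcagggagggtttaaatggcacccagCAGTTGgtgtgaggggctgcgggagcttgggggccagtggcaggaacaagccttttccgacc
Myf5: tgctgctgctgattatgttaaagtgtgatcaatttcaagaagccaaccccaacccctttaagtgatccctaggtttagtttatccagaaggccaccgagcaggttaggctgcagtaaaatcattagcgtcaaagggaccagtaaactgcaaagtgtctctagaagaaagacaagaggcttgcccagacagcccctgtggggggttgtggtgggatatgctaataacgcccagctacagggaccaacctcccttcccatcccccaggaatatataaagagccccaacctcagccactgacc
Chrna1: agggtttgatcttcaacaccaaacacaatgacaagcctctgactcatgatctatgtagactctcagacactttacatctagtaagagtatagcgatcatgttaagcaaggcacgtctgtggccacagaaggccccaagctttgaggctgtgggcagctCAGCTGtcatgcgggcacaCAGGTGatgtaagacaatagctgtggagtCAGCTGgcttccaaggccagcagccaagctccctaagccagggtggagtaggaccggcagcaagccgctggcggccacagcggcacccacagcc
Myog had E-boxes whose first bases lie at −138 and −12 from the start. Myf5 had neither motif in its window. Chrna1 had 3 E-boxes, with CAGCTG at −92 and −44 and CAGGTG, which reads CACCTG on the other strand, at −73. Over 32851 windows of the same length in the RefSeq table, 72.3% held an E-box, 16.3% held CAGCTG, 20.2% held CACCTG, 3.19% held an exact Mef2 site and 7.66% held one with any last base. An exact Mef2 site was found in the window of Mef2a, and an E-box in 2 of the 3 windows of Mef2c, while the window of Mef2d had neither motif. A match of letters is a description of the window and does not show that a factor bound there.

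**Figure D1:**
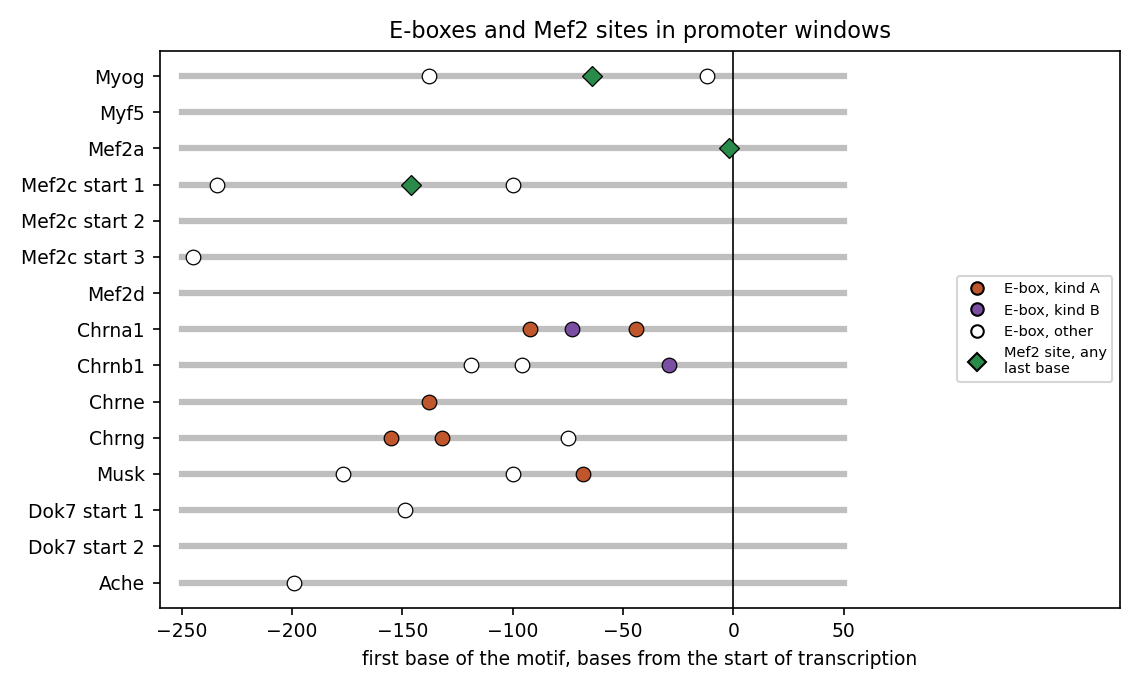
Positions of E-boxes and Mef2 sites (any last base) in promoter windows, in bases from the start of transcription, with grey bars for the windows. Kind A is CAGCTG, kind B is CACCTG and other stands for the remaining E-boxes. Myog has 2 E-boxes and 1 such Mef2 site, and Chrna1, Chrnb1, Chrng and Musk have 3 E-boxes each.

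Signals are given as log2 of the processed signal relative to the 75th percentile of the array, so that 0 is the 75th percentile and 1 is double that signal. This level depends on the probe as well as on the mRNA, so levels are compared between mice and not between genes. That percentile was a processed signal of 243 to 355 in young and 321 to 368 in aged mice. On each array 48.7% to 53.8% of probes stood well above background, and no spot was saturated. The 6 arrays were on 1 slide, with the 3 young mice and aged mouse 1 in row 1 and aged mice 2 and 3 in row 2. Over all genes tested the median log2 difference between aged and young mice was −0.08. Markers of muscle fibres were bright on every array, with a log2 signal of 9.60 to 9.90 in young and 9.41 to 9.54 in aged mice for Tnnt3, fast troponin T, which fits the labelled tissue.

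Myog, Myf6 and Myod1 were each higher in aged mice on average, and Myog and Myf6 were higher in all 3 aged mice than in any young mouse. In mouse 1, 2 and 3 of the young group the signal of Myog was −0.76, −0.44 and −0.18, and in those of the aged group it was 0.87, 1.95 and 3.14. The groups did not overlap, and the lowest aged mouse lay 1.05 above the highest young mouse on the log2 scale. The young mean was −0.46 ± 0.29 (SD, n = 3) and the aged mean 1.99 ± 1.13 (SD, n = 3), which gave a log2 difference of 2.45 (standard error 0.54, 95% interval 1.18 to 3.72) or 5.46-fold. The limma p was 0.00268 before and 0.149 after adjustment over all genes, so the difference did not pass the threshold of 0.05. Relative to the young mean, Myog was 2.52-fold in aged mouse 1, 5.31-fold in aged mouse 2 and 12.2-fold in aged mouse 3. Counted from the largest rise in aged mice, Myog stood at rank 76 of the 20900 genes. By p, with both directions counted, it stood at rank 376.

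Myf6, the member typical of mature fibres, was 5.74, 5.01 and 5.23 in young mice and 6.56, 6.0 and 7.50 in aged mice. Here too each aged mouse exceeded each young one, although aged mouse 2 stood only 0.26 above the highest young mouse. The mean went from 5.32 ± 0.37 (SD, n = 3) to 6.69 ± 0.76 (SD, n = 3), a log2 difference of 1.36 (standard error 0.40, 95% interval 0.42 to 2.31) or 2.57-fold, with a limma p of 0.0114 and an adjusted p of 0.222.

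Myod1, the factor that commits cells to the lineage, was 1.42, 0.87 and 0.54 in young mice and 0.89, 2.07 and 3.42 in aged mice. Aged mice 2 and 3 were above all young mice, whereas aged mouse 1 lay inside the young range. The log2 difference between the means of 0.94 ± 0.44 (SD, n = 3) and 2.13 ± 1.27 (SD, n = 3) was 1.18 (95% interval −0.26 to 2.63), with a limma p of 0.0933 and an adjusted p of 0.413. Against the young mean, Myod1 was 0.964-fold in aged mouse 1, 2.18-fold in aged mouse 2 and 5.57-fold in aged mouse 3.

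Myf5, the earliest of the family in development, was not well above background on any array. Its signal was −5.22, −5.63 and −4.35 in young mice and −5.74, −5.34 and −4.86 in aged mice. Only 1 of its 10 spots was above background on the arrays of young mouse 3 and of aged mouse 3, and none on the other arrays. At this brightness a difference was not detectable, and Myf5 did not enter the test. With no filter on dim probes its difference was −0.24 and its adjusted limma p was 0.899.

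**Figure D2:**
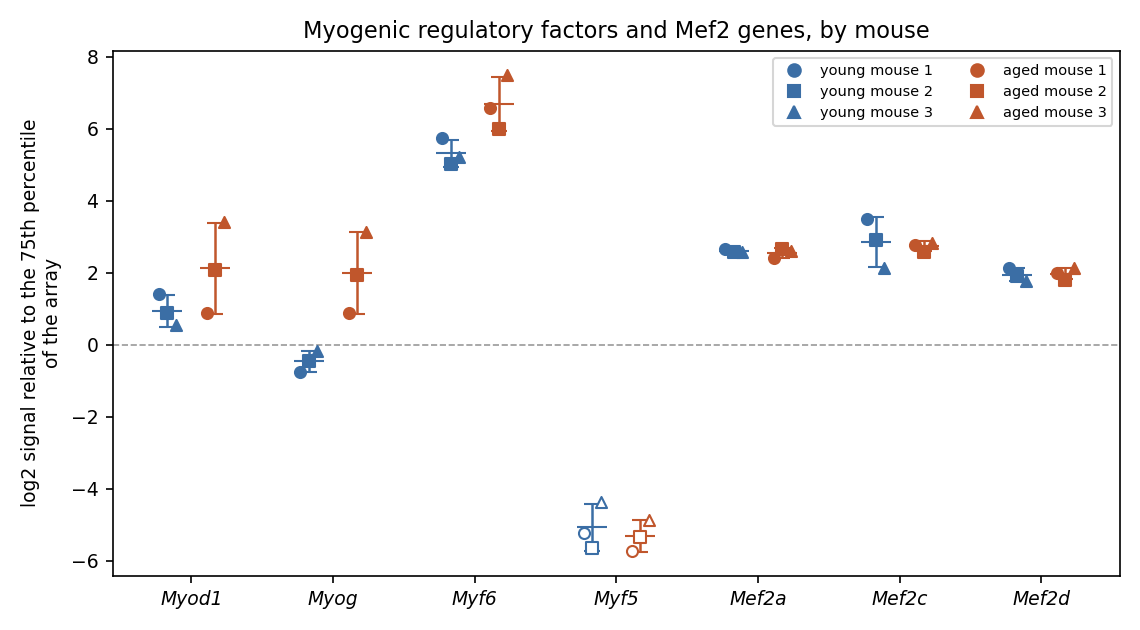
Log2 signal relative to the 75th percentile of the array (vertical axis) for each gene and mouse, with horizontal lines for the group mean, bars for the SD (n = 3) and open symbols for a probe not well above background. Aged mice lie above all young mice for Myog and Myf6, and the groups overlap for Myod1, Myf5 and the Mef2 genes. Heights are not comparable between genes.

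The array held 10 spots each for Myog, Myod1 and Myf5, which gives a measure of the error within an array. For Myog the SD of the spots on an array was between 0.064 and 0.116 on the log2 scale, and for Myod1 between 0.079 and 0.110. The dimmest Myog spot of any aged mouse was still 0.51 above the brightest Myog spot of any young mouse. The 3 aged mice spanned 2.27 for Myog and 2.53 for Myod1. The spots of an array share its labelling and hybridization, so their SD leaves out the error between arrays. For the dim Myf5 probe the spots varied more, with an SD of 0.53 to 0.84. The SD between aged mice was 3.89 times that between young mice for Myog, 2.85 times for Myod1 and 2.02 times for Myf6. Over all genes the median of this ratio was 1.15, and 56.9% of genes had a larger SD in aged mice. With 3 mice in a group such a ratio is imprecise, and it was not tested.

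**Figure D3:**
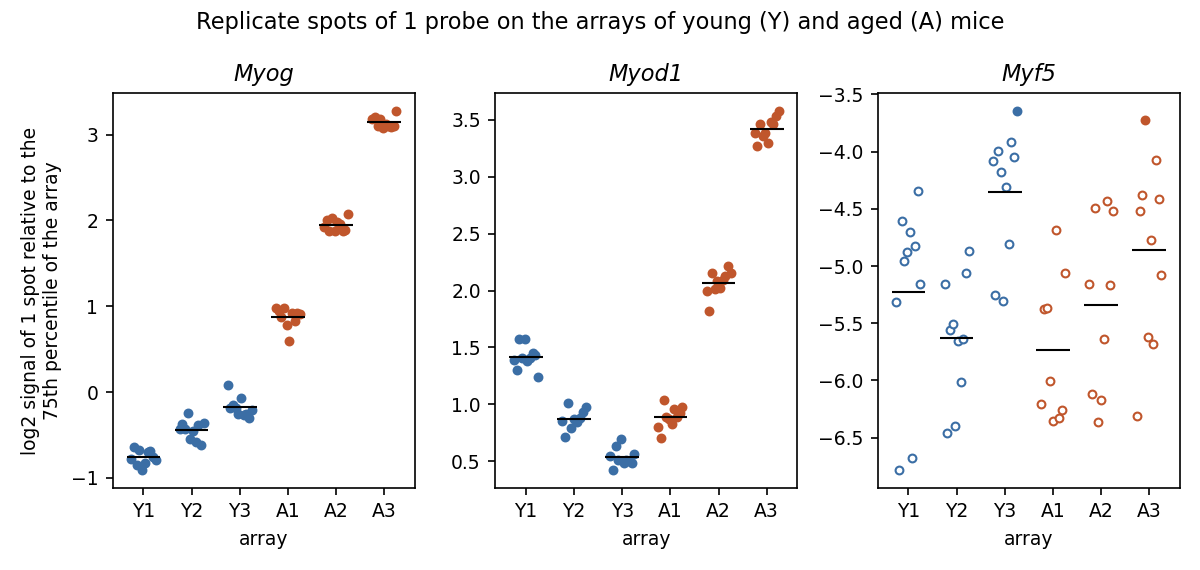
Log2 signal of the single spots of 1 probe each for Myog, Myod1 and Myf5 on the 6 arrays (Y1 to Y3 young, A1 to A3 aged), with lines for the mean of an array and open symbols for spots not well above background. The spots of an array lie close together for Myog and Myod1, and the arrays of aged mice 1, 2 and 3 lie apart from each other.

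For the Mef2 genes the differences were close to 0 and the groups overlapped. Mef2a was 2.66, 2.58 and 2.58 in young and 2.40, 2.66 and 2.62 in aged mice. Its log2 difference was −0.05, with a 95% interval of −0.42 to 0.32, and its 2 dimmer probes differed by −0.22 and 0.02. The values of Mef2a lay close together, and the groups overlapped on all 3 probes. Mef2c, which is needed for the structure of the sarcomere, was 3.50, 2.92 and 2.12 in young and 2.78, 2.58 and 2.84 in aged mice. The young mice spanned 1.38 on the log2 scale and enclosed the aged mice, and the difference of −0.11 had a wide interval of −0.92 to 0.70. Mef2d was 2.13, 1.92 and 1.78 in young and 1.99, 1.81 and 2.12 in aged mice. The groups overlapped, and the difference was 0.03 (95% interval −0.38 to 0.44) on the brighter probe and −0.15 on the dimmer one. Adjusted limma p lay between 0.894 and 0.948 for the Mef2 genes. All 3 intervals end below the difference of 1.36 measured for Myf6. The interval of Myf6, 0.42 to 2.31, overlaps those of Mef2c and Mef2d. The signs of the small Mef2 differences depended on the processing, as given in the closing section. A difference in effect between the Mef2 genes and the myogenic regulatory factors was not tested.

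At an adjusted p under 0.05, 0 of the 6 genes tested were past the threshold, where 0.249% of all genes were in either direction and 0.191% were with aged mice higher. Fitted by probe, 0 of their 9 tested probes were past it, beside 0.264% of all probes. At an unadjusted limma p under 0.05, 2 of 6 were past it, Myog and Myf6, both higher in aged mice, beside 14.7% of all genes in either direction and 5.72% higher in aged mice. The groups did not overlap for the same 2 of 6, beside 22.3% of all genes in either direction and 7.38% with aged mice higher. The shares over all genes are given as the background and not as a test. With 3 mice a group, the smallest p that an exact two-sided permutation test can reach is 0.1.

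The values of aged mouse 1, in row 1 of the slide, were set apart from those of aged mice 2 and 3, in row 2. Within row 1, aged mouse 1 can be compared with the 3 young mice. The log2 difference there was 1.33 for Myog, 1.24 for Myf6 and −0.05 for Myod1 (limma with the row as a block). These differences rest on 1 aged mouse. So does any p with the row as a block, where this mouse is assumed to vary like the others. Aged mice 2 and 3, in row 2, exceeded the young mice of row 1 by 3.01 for Myog, 1.43 for Myf6 and 1.80 for Myod1. For Myod1 the difference was thus seen only against row 2, and row and mouse cannot be told apart. Without aged mouse 1, Myog differed by 3.01 with an adjusted limma p of 0.0370, past the threshold, and Myod1 by 1.80 with an unadjusted p of 0.00742. In that setting the aged mice were all in row 2 and the young mice all in row 1, so age and row cannot be told apart. Without aged mouse 3, the difference of Myod1 was 0.54. Over all 17 alternatives, the row among them, Myog kept its sign, with differences from 1.33 to 3.01. Myf6 kept its sign too, with differences from 0.96 to 1.71. Many of these alternatives could not turn the sign, as given in the closing section. In every alternative but the row, both had an unadjusted limma p under 0.05.

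**Figure D4:**
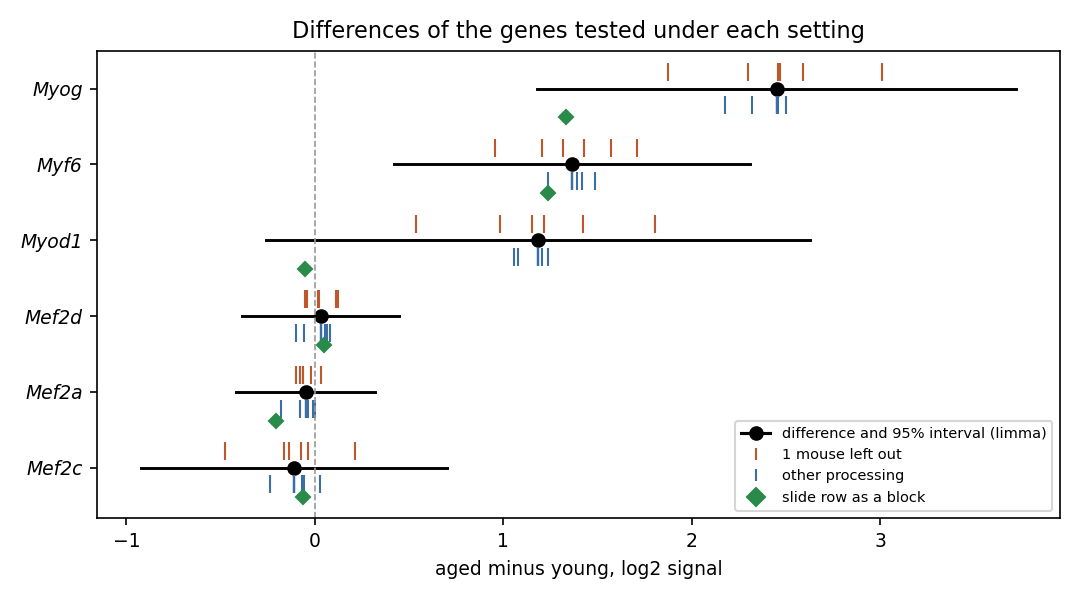
Log2 difference between aged and young mice (horizontal axis) of the 6 genes tested, with 95% limma intervals, and the same difference with 1 mouse left out, under other processing and with the slide row as a block. Myog and Myf6 stay to the right of 0 in all of them, Myod1 falls to −0.05 with the row as a block, and the Mef2 genes lie around 0.

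Across the 6 mice, Pearson correlations were 0.85 for Myod1 and Myog, 0.85 for Myog and Myf6 and 0.80 for Myod1 and Myf6. Among the Mef2 genes the largest was 0.82, for Mef2c and Mef2d. Within the young mice the order of Myog was the reverse of that of Myod1, and within the aged mice it was the same. All points share the 2 ages and their arrays, so these correlations are descriptions over 6 samples. Among 12680 genes well above background on all arrays, those most like Myog were P2rx5 (0.995), Ncf4 (0.991) and 2210016F16Rik (0.991). Most like Myod1 were Cd55b (0.987), Ccdc137 (0.986) and M6pr (0.984), and most like Myf6 were Pdia4 (0.993), Gtf2b (0.992) and Hoga1 (0.991). Correlations over 0.95 were reached by 89 genes with Myog, 41 with Myod1 and 73 with Myf6.

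The next genes act with or on the myogenic regulatory factors. The 7 E proteins and Id inhibitors, all tested, had a median of −0.08, the same as over all genes, and none passed the adjusted threshold. Of them 1 had an unadjusted p under 0.05, beside 14.7% of all genes. That gene was Tcf4, an E protein, which was lower by 0.49 on the log2 scale (4.01 ± 0.18 against 3.52 ± 0.12, SD, n = 3), with such a p in 11 of 17 alternatives. Among 10 of 13 other repressors of the family that could be tested, 5 were lower at an unadjusted p under 0.05, beside 9.02% of all genes, and none was higher, with a median of −0.51. Bhlhe41, a repressor of Myod1 function and a regulator of the clock, was between −0.15 and 0.17 in young and between −1.69 and −1.34 in aged mice. It fell by 1.45, with an adjusted p of 0.0418 from limma, and was past the threshold in 8 of 17 alternatives, but not with the row as a block nor without any 1 mouse other than aged mouse 1. Hey1, a Notch effector, was lower by 1.23, Twist2 by 0.78 and Bhlhe40 by 0.52, with adjusted p of 0.163 to 0.277 from limma. With the row as a block, 1 was higher and 2 were lower at that p, and the difference of Hey1 was −0.60 and that of Twist2 −0.20.

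All 14 regulators upstream of the family were tested, with a median of −0.14 and 2 lower at an unadjusted p under 0.05, beside 9.02% of all genes. With the row as a block the median was 0.06 and no gene had such a p. Dach1, a transcriptional cofactor, was lower by 0.95, with an adjusted p of 0.269 from limma, and by 0.58 with that block. Pax7, which marks satellite cells and acts before Myf5 and Myod1, was −2.02, −2.33 and −3.05 in young and −2.66, −2.64 and −2.21 in aged mice. Its difference was −0.04, and the sign turned in 5 alternatives. Of 18 Mef2 partners and regulators, 17 were tested, with 1 higher and 1 lower at an unadjusted p under 0.05, beside 5.72% and 9.02% of all genes. These were the class IIa deacetylases that restrain Mef2, Hdac4, higher by 0.52 (1.25 ± 0.21 against 1.77 ± 0.21, SD, n = 3), and Hdac5, with a difference of −0.70 that was −0.11 with the row as a block. Their adjusted limma p were 0.291 and 0.332.

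Genes known as targets of Myog and Myod1 at the synapse went both ways, with 6 of 11 higher and 5 lower on average in aged mice. Of 11 synaptic genes, 6 were higher and 1 was lower at an unadjusted p under 0.05, beside 5.72% and 9.02% of all genes. Of the list, 0 passed the adjusted threshold, and the list median was 0.96. When a probe had to be well above background on every array, 10 genes were left, with 5 higher and 1 lower and a median of 0.36. The non-overlapping groups numbered 6 with aged mice higher, beside 7.38% of all genes, and 2 with aged mice lower, beside 14.9%. Chrna1 was between 2.87 and 3.06 in young and between 3.90 and 5.65 in aged mice, a log2 difference of 1.82. The differences were 1.73 for Chrnb1 and 1.12 for Chrnd, the beta and delta subunits, with adjusted limma p of 0.151 for each of the 3. Chrne, another subunit of the receptor, differed by −0.27. Chrng, the fetal gamma subunit, was not well above background on any array of a young mouse and entered the test only through the aged mice. It was at least 2.47-fold brighter in aged mice, with an adjusted limma p of 0.142, and the count and median of the list include it. Without aged mouse 1 the difference of Chrna1 was 2.26, and with the row as a block it was 0.93. The list median was 0.52 with that block and 0.32 with normexp background correction, under which Chrng also differed by 0.32. The E-boxes of these genes are in the plot of motif positions. Of the 7 synaptic genes with a window, Chrna1, Chrnb1, Chrng and Musk had 3 E-boxes each, and the other genes had at most 1 in a window. Chrnd had no window. A count of 3 or more was found in 17.6% of all windows. Of the 10 genes of fusion and the early fibre, described below, 8 had a window. Cdh15 had 4 E-boxes with a difference of 0.08, and Tnnt2 had 5 and 2 in its windows with a difference of 0.55. Myh8 and Myl6b had 2 each, with differences of −0.20 and −1.11. Myh3, Mybph and Actc1 had 1 each, with differences of 1.65, 0.99 and 0.09, and Myl4 had 0 with a difference of 0.76. The relation of E-boxes to the differences was not tested.

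All 10 genes of fusion and the early fibre were tested, with a median of 0.65. At an unadjusted p under 0.05, 4 were higher and none lower, beside 5.72% and 9.02% of all genes. None passed the adjusted threshold. Under the same stricter filter, 8 genes were left, with 2 higher and 1 lower and a median of 0.32. Mymx and Mymk, the membrane proteins that fuse myoblasts, were higher by 3.66 and 1.75, and embryonic myosin Myh3 by 1.65. Mymx was −1.60, −1.84 and −4.46 in young and −0.46, 2.61 and 0.91 in aged mice, so its aged and young mice did not overlap but were widely spread. Mymx was well above background on 2 and Mymk on 1 of the young arrays, so their low young values are imprecise. The lowest differences over the alternatives were 2.18 for Mymx, with the row as a block, and 0.60 for Mymk. Myl4, an embryonic light chain, was higher by 0.76 with overlapping groups. Adjusted limma p of these 4 genes lay between 0.105 and 0.334. The ubiquitin ligases Trim63 and Fbxo32, known targets of Myog in denervated muscle, differed by 0.60 and 0.23, with overlapping groups and adjusted p of 0.679 and 0.903 from limma. Without aged mouse 1 the differences were 0.096 and −0.64, and with the row as a block 1.60 and 1.97.

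The 12 targets of Mef2 had a median of −0.17, and none passed the adjusted threshold. At an unadjusted p under 0.05, 2 were higher and 2 lower, beside 5.72% and 9.02% of all genes. Xirp1, an actin-binding protein of the fibre, was higher by 1.93, and Hspb7, a small heat shock protein, by 1.18. Nr4a1, a nuclear receptor, was 7.50, 6.93 and 7.41 in young and 5.33, 6.65 and 6.13 in aged mice, lower by 1.25, and the glucose transporter Slc2a4 was lower by 0.44. Their adjusted limma p lay between 0.142 and 0.296.

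**Figure D5:**
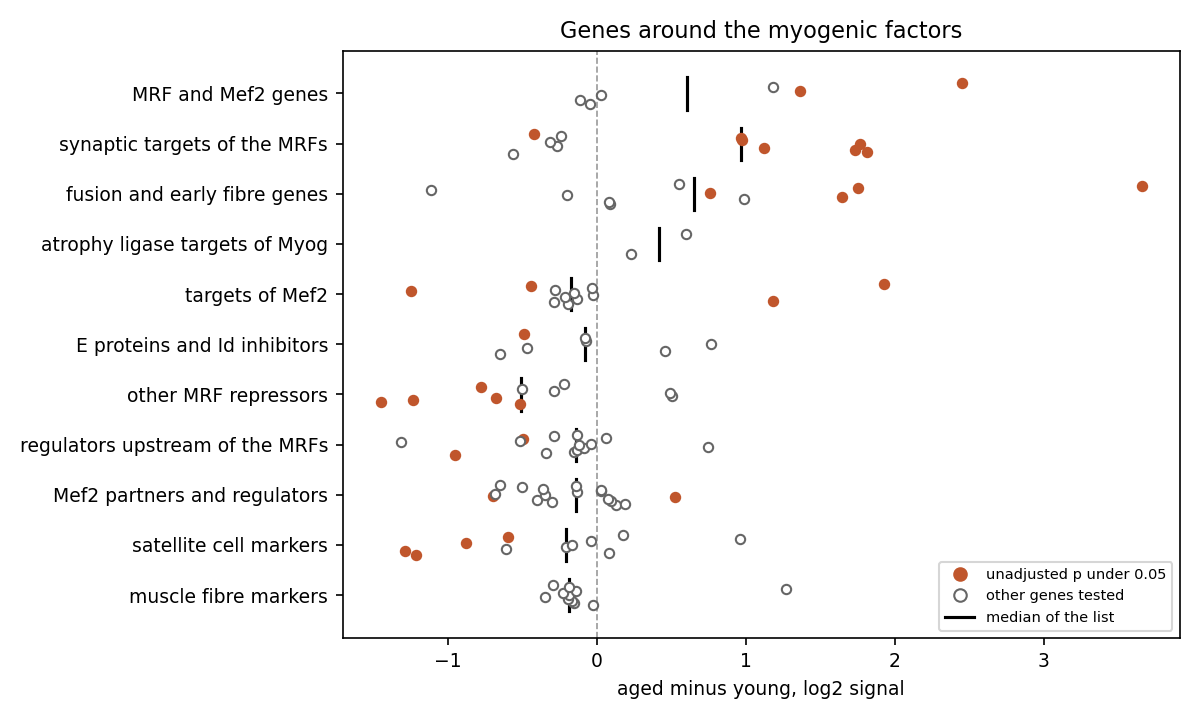
Log2 difference between aged and young mice for each gene tested in lists around the myogenic factors, with filled symbols for an unadjusted limma p under 0.05 and black lines for the list median. The medians of the synaptic and fusion lists are 0.96 and 0.65, that of the other repressors is −0.51, and the remaining partner and upstream lists lie between −0.14 and −0.08.

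Satellite cells, which hold Myod1 and Myf5, and other cells of whole muscle were followed by their markers. The 11 satellite cell markers had a median of −0.21. At an unadjusted p under 0.05, 4 were lower and none higher, beside 9.02% and 5.72% of all genes. Those were Megf10 (lower by 0.88), Spry1 (by 0.60), Chodl (by 1.29) and Calcr (by 1.21), and 2 of the 11 were lower with the row as a block. The brightest markers, Itga7 and Cdh15, differed by −0.17 and 0.08, and Cdh15 by −0.05 with scaling to the median. Summed over the list, the signal was 78.8 to 112 times the 75th percentile in young and 78.0 to 88.3 times in aged mice, so the groups overlapped. All 11 were tested, and so none was at background throughout, but Calcr was well above it in only 1 aged mouse. Of 11 muscle fibre markers tested, 0 had an unadjusted p under 0.05 in limma, with summed signals of 5480.4 to 6580.5 and 4434 to 5909 times.

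Markers of other cell types were read in the same way, and 1 of them, Prx, passed the adjusted threshold. Macrophage markers were higher for 5 and lower for 0 of the 10 tested at an unadjusted p under 0.05, and Cd163 was too dim to test. Their summed signals were 20.8 to 22.5 times in young and 24.2 to 29.8 times in aged mice. The count includes a gene that was not well above background on any young array and entered the test only through the aged mice. When a probe had to be well above background on every array, 9 genes were left, with 4 higher and 0 lower. Endothelial markers were lower for 3 of 10, with sums of 56.6 to 72.4 and 34.0 to 55.1 times, and for 0 of 10 with the row as a block in limma. Fibroblast markers were lower for 3 of 10, with sums of 412 to 473 and 200.5 to 313 times. Schwann cell markers were higher for 1 and lower for 7 of 10, with sums of 25.1 to 43.2 and 23.9 to 38.4 times. Prx, a protein of myelinating Schwann cells, fell by 1.31 with an adjusted p of 0.0418 from limma, and was past the threshold in 7 of 17 alternatives. Mbp, a myelin protein on the same list, was higher by 1.31, and was past the threshold in 3 of 17 alternatives. At that unadjusted p, 5.72% of all genes were higher and 9.02% lower. The part of these cells in the signals of Myog, Myf6 and Myod1 was not tested.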

How the data were processed

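For 6 Cy3 arrays of total RNA, the authors deposited Feature Extraction output. The deposited values are intensities: a processed signal, background-subtracted and detrended within the array but not scaled between arrays, and the median spot and background signals. Values in the series matrix were the same (largest log2 difference 0). Feature Extraction is version 9.5 in the submitters' processing notes and 11.0.1.1 in the file headers, with an array design on mm9. The methods name no normalization or test for the arrays.

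Control spots and flagged spots (161 to 212 per array) were left out, log2 signals were averaged over the spots of a probe, and each array was scaled by subtracting its own 75th percentile, with a pseudocount of 0. Of 55681 probes, 28325 had an accession that matched a RefSeq gene symbol and 27356 kept their identifier, and 12 with only flagged spots on some array were left out. A gene was its brightest probe among the 28002 well above background (in at least 0.5 of the spots of a probe) on at least 3 arrays. Probe positions within genes were not analysed here. The test of age was limma's moderated one (version 3.58.1, R 4.3.3, lmFit and eBayes), and p were adjusted by Benjamini-Hochberg over all 20900 tested genes, of which 13840 had a symbol. The threshold was 0.05 and intervals cover 95%. The fit was tested on simulated data. A bound against a group not well above background is the mean of the bright group minus, per array, the higher of the dim probe and the lowest probe well above background. The number of arrays limits the precision. The 3 mice of a group are separate animals.

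The members, the lists of other genes, the tests and the alternatives were chosen with earlier results of these data known. Named were all 7 members with every probe, up to 4 genes of a list by smallest p among those with an unadjusted p under 0.05, the 2 brightest of a marker list, and the 3 genes most correlated with each member of the family tested. Pax7, Trim63, Fbxo32, Musk, Chrne, Tnnt2, Myh8, Myl6b, Mybph and Actc1 were named outside this rule, after their values were seen. One gene that met the rule is not reported here. The replicate numbers did not pair the mice: deviations of mice with the same number correlated at −0.06, −0.27 and 0.03. Alternatives were normexp (offset 50, on median signals), quantile normalization, the median or the 75th percentile of detected probes as the scale, other filters, the series matrix, a mean-variance trend, the mean over the probes of a gene, the slide row or the replicate number as a block, and each mouse left out.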

Additional observations from a re-analysis of the deposited data

How the results depend on the processing

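Of the 6 genes tested, Myog and Myf6 kept their direction under all 17 alternatives. For both, with 1 probe each, the filters, the series matrix, the trend, the replicate block and the mean over probes left the difference unchanged. As their groups did not overlap, neither leaving out 1 mouse nor the row as a block could turn the sign. Myod1 kept its direction under 16, and turned to −0.053 with the slide row as a block. The Mef2 genes, whose differences lay near 0, turned in a few: Mef2a to 0.0028 with the 75th percentile over detected probes and to 0.030 without aged mouse 1, and Mef2c to 0.027 with normexp and to 0.21 without young mouse 1. Mef2d turned to −0.058 with the mean of all probes, to −0.099 with scaling to the median, to −0.042 without aged mouse 3 and to −0.052 without young mouse 3. With each mouse left out, the difference ranged from −0.099 to 0.030 for Mef2a, from −0.48 to 0.21 for Mef2c and from −0.052 to 0.12 for Mef2d. The number of the 6 genes, and of their probes, past an adjusted p of 0.05 was 0 under every other setting and 1, Myog, without aged mouse 1, a range of 0 to 1 with each mouse left out. Without aged mouse 1, age and slide row cannot be told apart.

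Over all genes, 52 were past the threshold, 40 higher and 12 lower in aged mice. The split was 26 to 16 with scaling to the median, 40 to 25 with normexp and 22 to 21 with the slide row as a block. The count was 8 with no filter on dim probes, 32 when a probe had to be well above background on every array, and between 1 (without aged mouse 3) and 193 (without aged mouse 1) with each mouse left out. With the slide row as a block it was 43, of which 12 were shared. With the replicate number as a block, a pairing that the data did not bear out (0 of 6 mice correlated best with their own number), it was 5, and the adjusted p were 0.152 for Myog, 0.290 for Myf6 and 0.537 for Myod1. Scaling to the median moved the median difference of all genes from −0.08 to −0.21. The cause of these shifts was not tested. For dim probes such as Myf5, signal over background was the limit.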
